A study of Mus musculus with 70 samples.

Results

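Ligand-gated transmitter receptors are ion channels in the cell membrane that open when a transmitter binds. Their subunits were followed in mouse dorsal root ganglia, which hold the cell bodies of the sensory neurons of the body, with and without injury to their axons. Members were all probes whose annotated gene symbol begins with the name stem of a subunit of the GABA-A, glycine, AMPA, delta, kainate, NMDA, nicotinic acetylcholine or P2X receptors. The rule found 80 probes of 52 genes, out of 16593 genes with a symbol on the array. They comprised 11 GABA-A, 5 glycine, 4 AMPA, 4 kainate, 5 NMDA, 16 nicotinic and 7 P2X genes, and no delta gene. Of these, 58 probes of 37 genes passed the filter on low signal, a detection p-value below 0.05 on at least 3 of the 70 arrays. The other 22 probes did not pass, and 19 of them were above background on no array. The 15 genes with no probe left were Gabra2, Gabra5, Gabra6, Gabre, Gabrg3, Glra1, Glra3, Glra4, Chrnd, Chrng, Grin2a, Grin2b, Grin2d, Grin3b and P2rx1, and no value is given for them.

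The study compared naive and axotomised ganglia of 9 mouse strains, called 129, C57, C3H, DBA, AJ, NOD, NZO, WSB and CAST. Axotomy is labelled AX5D, taken to mean that the axons were cut 5 days earlier, and each sample pooled 6 ganglia of 3 mice. Each strain gave 4 naive and 4 axotomy arrays, except AJ with 3 of each, so 35 naive arrays stood against 35 axotomy arrays. Strain was the only stated genetic difference, and the labels used here give no transgene, drug, age or name of the nerve that was cut. On each array 13147 to 14721 of the 17616 kept probes were above background, and over 500 strain-marking probes all 70 arrays correlated best with their own strain in the other treatment. The injury marker Atf3 lay between 6.27 and 8.14 on the log2 scale in naive arrays and between 12.46 and 13.50 after axotomy. Of 12 measured neuron markers, 4 rose and 7 fell after axotomy, and their summed linear level ranged from 159662 to 198056 in naive and from 150596 to 183208 in axotomy arrays. In AJ, CAST and DBA all axotomy sums lay below all naive sums. All 11 measured macrophage markers rose, from sums of 1786 to 4792 to sums of 7739 to 20578.

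GABA-A and glycine receptors pass chloride, and in sensory neurons, which keep a high internal chloride level, they depolarise the cell and its central terminals. AMPA, kainate and NMDA receptors answer glutamate, nicotinic receptors answer acetylcholine, and P2X receptors answer extracellular ATP, all by passing cations. Each channel is assembled from several subunits, and the subunits present set its transmitter affinity, calcium passage and speed. In whole ganglia a lower value can come from fewer cells of a type or from less RNA per cell, and these cannot be told apart.

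Values are log2 levels of normalised intensity, and differences are axotomy minus naive as the mean over the 9 strains with its standard error (SE), unless stated otherwise. Levels of different probes are not comparable. Adjusted p-values come from limma, fitted on all 17616 kept probes, with 0.05 as the threshold. In that comparison 59.5% of all kept probes were called, 26.4% higher and 33% lower. Of the 58 subunit probes, 40 (69.0%) were called, 10 of them higher (17.2%, 8 genes) and 30 lower (51.7%, 19 genes). Their median difference was -0.16, against -0.04 over all kept probes. With 1 probe per gene, 7 of 37 subunit genes were higher and 18 lower, with a median of -0.15 against -0.03 over 11815 genes. By class, no measured AMPA, glycine or kainate probe was called higher by limma, at an adjusted or an unadjusted p below 0.05, while the called nicotinic and GABA-A probes went both ways. Called with the same sign in all 9 strains were 22 subunit probes (37.9%), against 32.6% of all kept probes.

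**Figure D1:**
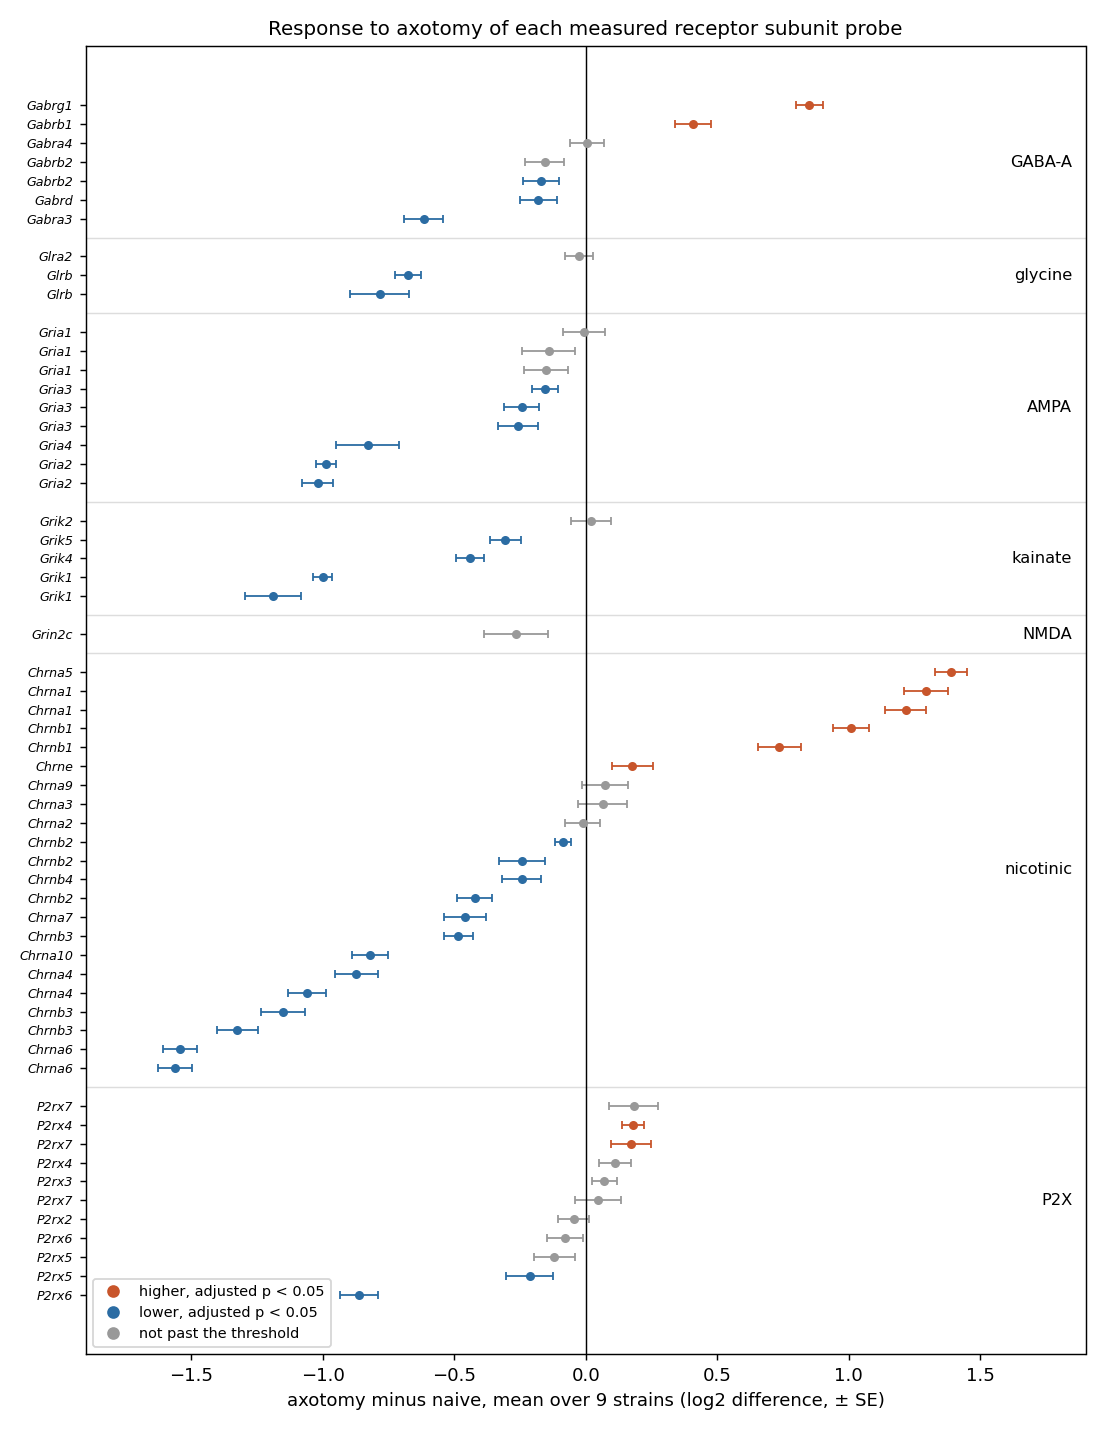
Response of each of the 58 kept probes, one row per probe with its gene, grouped by receptor class. Points are axotomy minus naive as a log2 difference averaged over the 9 strains, bars are 1 SE, and colour gives the direction where the adjusted p was below 0.05. The nicotinic class spans the range from Chrna5, with a fitted 1.39 over naive arrays that were not above background, to Chrna6 at -1.56.

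Among GABA-A subunits, Gabrg1 and Gabrb1 rose and Gabra3 fell. Of the 7 measured probes 2 were called higher, 3 lower and 2 neither, with a median of -0.16. Gabrg1, a gamma subunit, had naive values with a lowest of 7.22, a median of 8.07 and a highest of 8.85. After axotomy they were 8.002, 8.96 and 9.67. The 2 sets of arrays overlapped in their ranges. The difference was 0.85 (SE 0.05, adjusted p = 4.72e-23), positive in all 9 strains and called in 8. Gabrb1, a beta subunit and a neighbour of Gabra4 on the chromosome, rose by 0.41 (SE 0.07, adjusted p = 4.73e-07). Its response differed between strains (adjusted p = 0.0348, moderated F-test), from -0.16 in CAST to 1.15 in AJ. It was positive in 8 of 9 strains and called in only 3. Its arrays ran from 5.81 through a median of 7.002 to 7.84 in naive ganglia, and from 6.62 through 7.30 to 7.83 after axotomy, so that mainly the lower end moved. Gabra3, an alpha subunit, ran from 6.63 through 7.50 to 8.38 in naive arrays and from 5.74 through 6.92 to 7.48 after axotomy. It fell by 0.62 (SE 0.07, adjusted p = 3.92e-11), and in 7 of 9 strains the sign was negative. Gabrd, the delta subunit of extrasynaptic receptors, was above background on 11 naive and 6 axotomy arrays and differed by -0.18 (adjusted p = 0.023), a call lost without NZO (adjusted p = 0.150) or WSB (adjusted p = 0.109). The 2 probes of Gabrb2 gave -0.17 (adjusted p = 0.026) and -0.16 (adjusted p = 0.0588), the first no longer called without AJ or DBA (adjusted p = 0.0783 and 0.0711), and Gabra4 gave 0.01 (adjusted p = 0.943). Satellite glia markers went with 3 of 8 called higher and 2 lower, with summed levels of 31081 to 48798 in naive and 30964 to 50942 in axotomy arrays, and their part in these results was not tested.

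Glrb, the glycine receptor beta subunit that ties the receptor to the scaffold protein gephyrin, fell. Its better measured probe ran from 8.42 through 9.05 to 9.48 in naive arrays and from 7.93 through 8.33 to 8.83 after axotomy. The difference of -0.68 (SE 0.05, adjusted p = 1.63e-19) was a 1.597-fold lower level and was called in each of the 9 strains. The second probe fell by 0.78 (SE 0.11, adjusted p = 8e-09), with a positive value in C57 only. The only measured alpha subunit of the class, Glra2, was above background on 2 naive and 1 axotomy arrays, and its difference was -0.03 (adjusted p = 0.713). Glrb lies next to Gria2, with no protein-coding gene between them in the RefSeq annotation.

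Gria2, the AMPA subunit that makes the channel nearly impermeable to calcium, fell about as far on both of its probes. The first ran from 9.73 through 10.25 to 10.62 in naive arrays and from 8.62 through 9.22 to 9.89 after axotomy. Only the top of the axotomy range reached the bottom of the naive range. The difference was -0.99 (SE 0.04, adjusted p = 4.23e-32), a 1.98-fold lower level, and the second probe gave -1.02 (SE 0.06, adjusted p = 3.31e-24). Both probes were called lower in all 9 strains. Gria4, another pore-forming AMPA subunit, ran from 4.99 through 6.65 to 7.73 in naive arrays and from 4.79 through 5.74 to 6.66 after axotomy. It fell by 0.83 (SE 0.12, adjusted p = 1.24e-08) and was above background on 31 naive but 14 axotomy arrays. Gria3 fell by 0.15 (adjusted p = 0.00626) on the probe that was above background on all arrays. Its other probes were above background on 12 naive and 2 axotomy arrays (-0.26, adjusted p = 0.00274) and on 4 naive arrays and no axotomy array, and for the latter, called lower by the fit, no bound on a fall could be given. Gria1 did not pass the threshold on any of its 3 probes, with differences of -0.15, -0.14 and -0.01 (adjusted p = 0.112, 0.234 and 0.954). With runs of 8 neighbouring columns as a block the first of these was called, at -0.25 (adjusted p = 0.0129).

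Of 5 kainate receptor probes 4 were called lower, with a median of -0.44. Grik1 encodes GluK1, the kainate subunit for which sensory neurons are best known. It was the only subunit whose naive and axotomy arrays did not overlap, 1 of 58 probes (1.72%) against 1.82% of all kept probes. Its naive values had a lowest of 13.49, a median of 13.77 and a highest of 14.16, and its axotomy values 12.13, 12.78 and 13.32. The difference was -1.0001 (SE 0.04, adjusted p = 1.08e-33), a 2.00-fold lower level, and within runs of 8 neighbouring columns of the table it stayed between -1.12 and -0.88 in all 9 runs. A second Grik1 probe fell by 1.19 (SE 0.11, adjusted p = 2e-15). Its smallest difference, -0.22, was in CAST, where no naive array was above background on this probe. The high-affinity kainate subunits Grik4 and Grik5, which need a partner such as GluK1 to form channels, fell by 0.44 (SE 0.05, adjusted p = 1.01e-10) and by 0.30 (SE 0.06, adjusted p = 9.09e-06). Grik4 ran from 6.13 through 7.47 to 8.54 before and from 5.56 through 7.19 to 7.87 after axotomy, with most of both ranges shared. Grik2 gave 0.02 (adjusted p = 0.834) and was above background on 4 naive and 7 axotomy arrays. The single NMDA subunit measured was Grin2c, at -0.27 (SE 0.12, adjusted p = 0.0537). It passed the threshold without any 1 of 21 arrays, without C57 (adjusted p = 0.0398), with median scaling (0.0280) and with array weights (0.0465).

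Nociceptor markers, genes typical of pain-sensing neurons, were all lower (8 of 8 measured, median -1.04), with summed levels of 45226 to 60381 in naive and 18660 to 39865 in axotomy arrays. Markers of large-diameter neurons were also all lower (6 of 6, median -0.80), with sums of 25931 to 50678 and 15083 to 34227. Their part in the lower subunit values was not tested.

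**Figure D2:**
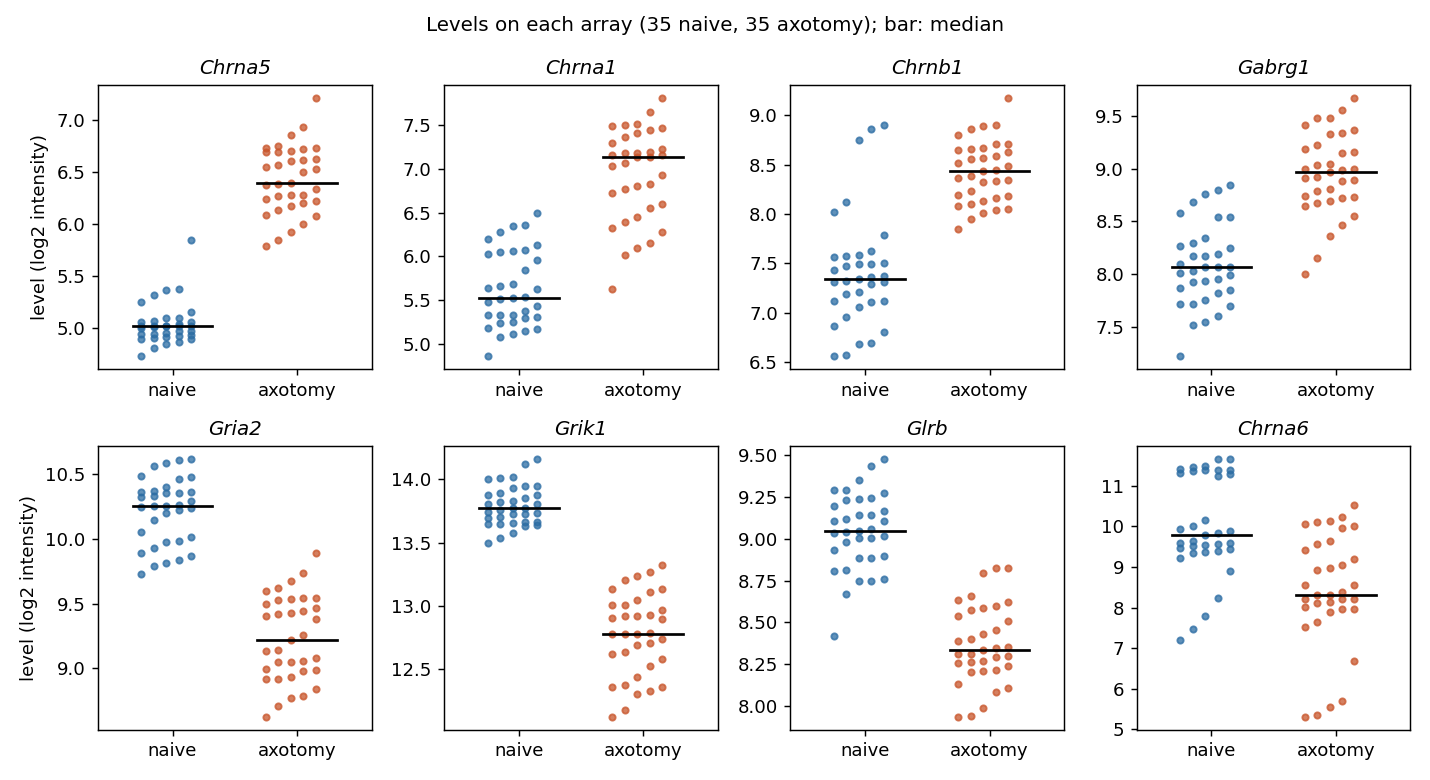
Level of 8 subunit genes on each of 35 naive (blue) and 35 axotomy (orange) arrays, 1 probe per gene, as log2 intensity on an axis of its own for each gene. Black bars are medians. The Grik1 sets are separate, with 13.49 as the lowest naive and 13.32 as the highest axotomy value, and the Chrna6 values fall into steps that follow strains.

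The nicotinic class held both the largest fitted rises and the largest falls, with 6 probes higher, 13 lower and 3 not called out of 22. Chrna5, an accessory subunit that joins alpha3-beta4 or alpha4-beta2 receptors and does not form a channel alone, rose. It was not above background on any of the 35 naive arrays and was above it on 33 of 35 axotomy arrays, so that it passed the filter through the axotomy arrays alone. Its naive values had a lowest of 4.73, a median of 5.01 and a highest of 5.84, and its axotomy values 5.79, 6.40 and 7.22. Between the highest naive and the lowest axotomy array the overlap was narrow. The fitted difference was 1.39 (SE 0.06), and against the detection floor the level after axotomy was at least 1.41-fold higher. The fit called it higher in all 9 strains, which is no support, since the filter let the probe in through the axotomy arrays. In the strains these bounds lay between 1.06-fold and 1.845-fold and give no order of the strains.

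Chrna1, Chrnb1 and Chrne encode subunits of the muscle-type receptor of the neuromuscular junction, and the first 2 rose clearly. Chrna1 was above background on 11 naive and 34 axotomy arrays on its first probe, which ran from 4.86 through 5.52 to 6.49 and then from 5.62 through 7.14 to 7.81. The rise was 1.29 (SE 0.08, adjusted p = 1.26e-21). Its second probe rose by 1.22 (SE 0.08, adjusted p = 8.6e-22) and was called in all 9 strains, while the remaining probe was above background on no array. Chrnb1 ran from 6.56 through 7.35 to 8.90 in naive arrays and from 7.85 through 8.43 to 9.18 after axotomy. It rose by 1.01 (SE 0.07, adjusted p = 9.64e-21), and on its weaker probe by 0.74 (SE 0.08, adjusted p = 6.46e-12). Chrne gave 0.18 (adjusted p = 0.0467), with a positive sign in 6 of 9 strains. Leaving out 1 array lost the Chrne call for 37 of the 70 arrays (adjusted p up to 0.0805), and leaving out C3H gave 0.13 (adjusted p = 0.180). Chrnd and Chrng had no kept probe.

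Higher in each of the 9 strains were 2 of 58 subunit probes (3.45%), of Chrna5 and Chrna1, against 3.88% of all kept probes. The Chrna5 probe had passed the filter through the axotomy arrays alone. None of 12 measured skeletal muscle markers was called by limma in either direction, also at an unadjusted p below 0.05 (Myod1 had no kept probe). Their summed level ran from 539 to 21428 in naive and from 604 to 14652 in axotomy arrays. On the naive DBA array with the highest sum Chrna1 stood at 5.30, inside the 5.11 to 6.07 of the other DBA naive arrays. Chrnb1 stood above its group there, at 7.79 against 6.81 to 7.31 and on its weaker probe at 5.87 against 5.05 to 5.81. On the other two arrays with high sums Chrnb1 also lay above its group on its brighter probe, at 8.63 against 8.05 to 8.56 in NZO after axotomy and at 7.43 against 6.57 to 7.36 in naive NOD. In naive NOD the weaker Chrnb1 probe (5.54 against 5.28 to 5.39) and Chrne (5.97 against 5.56 to 5.82) lay above their group as well. On the NZO array both lay inside their group, and on the DBA array Chrne did. Without the 3 arrays with the highest muscle sums Chrna1 rose by 1.29 and 1.21 and Chrnb1 by 0.76 and 1.03. The part of muscle in the Chrna1, Chrnb1 and Chrne values was not tested.

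The sequence before the start of Chrna1, Chrna5 and Chrnb1, which rose, was read to show what it holds. RefSeq promoters (build GRCm38.p6) were found for 38 of the 52 genes, and the 250 bases before the annotated start are printed 5′ to 3′. Capitals mark a match to 1 of 3 motifs, the AP-1 motif TGANTCA, the cAMP response element TGACGTCA and the E-box CAGCTG, each of which reads the same on both strands, and no matches overlapped. Chrna1 is shown because its stretch holds matches, and Chrna5 and Chrnb1 for comparison, where these letters are not in the window.
Chrna1 (GRCm38.p6 chr2:73580339-73580588, minus strand): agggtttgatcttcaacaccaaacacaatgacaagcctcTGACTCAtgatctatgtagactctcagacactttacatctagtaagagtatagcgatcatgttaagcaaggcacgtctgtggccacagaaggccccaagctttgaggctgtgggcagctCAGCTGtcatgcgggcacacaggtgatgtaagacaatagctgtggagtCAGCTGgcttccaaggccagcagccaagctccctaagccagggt
Chrna5 (GRCm38.p6 chr9:54980630-54980879, plus strand): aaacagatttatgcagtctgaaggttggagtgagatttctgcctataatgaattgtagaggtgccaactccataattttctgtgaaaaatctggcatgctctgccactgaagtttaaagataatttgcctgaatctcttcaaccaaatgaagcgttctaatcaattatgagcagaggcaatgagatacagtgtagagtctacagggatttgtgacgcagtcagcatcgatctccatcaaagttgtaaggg
Chrnb1 (GRCm38.p6 chr11:69795938-69796187, minus strand): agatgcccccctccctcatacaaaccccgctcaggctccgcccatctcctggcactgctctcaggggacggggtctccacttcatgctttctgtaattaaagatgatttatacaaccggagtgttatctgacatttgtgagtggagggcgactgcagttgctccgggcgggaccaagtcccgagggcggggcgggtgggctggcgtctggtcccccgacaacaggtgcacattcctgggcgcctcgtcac

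In the Chrna1 stretch the AP-1 match starts 211 bases before the gene start, and both E-box matches lie between it and the start. Over all 27025 promoters of the same length, 6.87% held the AP-1 motif, 1.62% the cAMP response element and 12.8% the E-box. Among the 38 subunit promoters, 3 (7.89%) held the AP-1 motif, those of Chrna1, Grin3b and P2rx7. None held the cAMP response element, and 6 (15.8%) held the E-box, those of Chrna1, Chrna9, Chrnb4, Chrne, Chrng and Glra3. The sets of letters describe these stretches and were not tested for a part in the response.

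The largest falls were in Chrna6 and Chrnb3, neighbouring genes with no protein-coding gene between them, whose products can assemble together in 1 receptor. Chrna6 on its 2 probes fell by 1.56 (SE 0.06, adjusted p = 2.5e-31) and 1.54 (SE 0.07, adjusted p = 1.32e-30), 2.95-fold and 2.91-fold lower levels. On the first of these its naive arrays ran from 7.20 through 9.78 to 11.67 and its axotomy arrays from 5.31 through 8.30 to 10.53. The wide overlap was between strains, since in each strain the naive and axotomy arrays were apart. Chrnb3 fell by 1.32 (SE 0.08, adjusted p = 1.79e-23), 1.15 (SE 0.08, adjusted p = 4.12e-19) and 0.48 (SE 0.06, adjusted p = 2.55e-11) on its 3 probes. The last of these was above background on only 12 naive and 4 axotomy arrays.

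Called lower in each of the 9 strains were 5 of 58 subunit probes (8.62%), against 3.54% of all kept probes. They were both probes of Gria2 and 1 each of Glrb, Grik1 and Chrna6. Chrna4, the alpha partner of beta2 in the common brain receptor, fell by 1.06 (SE 0.07, adjusted p = 2.8e-20) and 0.87 (SE 0.08, adjusted p = 7.97e-15). On the first of these it ran from 5.33 through 7.12 to 8.57 before and from 4.79 through 5.99 to 7.69 after axotomy, with much overlap.

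Chosen after their values were seen are Chrna10, Chrna7, Chrnb2 and Chrnb4. Chrna10, which forms receptors with alpha9, fell by 0.82 (SE 0.07, adjusted p = 1.14e-16) and was above background on 16 naive arrays and 1 axotomy array. Chrna7, which forms receptors of 1 subunit type with high calcium passage, fell by 0.46 (SE 0.08, adjusted p = 9.14e-07). It was above background on 26 naive and 8 axotomy arrays. The beta subunit Chrnb2 gave -0.42, -0.24 and -0.09 on its 3 probes, all called, the second above background on 16 naive and 6 axotomy arrays. Chrnb4, above background on 14 naive and 12 axotomy arrays, gave -0.24 (SE 0.07, adjusted p = 0.00394). The last call was lost without CAST (-0.13, adjusted p = 0.151) or WSB (-0.18, adjusted p = 0.0505), and that of the weakest Chrnb2 difference without C57 or DBA (adjusted p = 0.0504 and 0.0995). Chrna2 (-0.01), Chrna3 (0.06) and Chrna9 (0.07) did not pass the threshold in the mean over strains.

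P2X subunits had a median difference of 0.05 over 11 probes, 2 called higher, 2 lower and 7 neither. P2rx3, the subunit that marks many nociceptors, was at 9.17 to 10.69 in naive and 9.30 to 10.62 in axotomy arrays. Its difference was 0.07 (SE 0.05, adjusted p = 0.204), beside the 8 nociceptor markers that all fell. That mean covers responses from -0.36 in C3H to 0.55 in AJ, positive in 4 of 9 strains. P2rx3 was called higher in 3 strains and lower in 0, and its response differed between strains (adjusted p = 0.00347, moderated F-test). P2rx4, best known from microglia, rose by 0.18 (SE 0.04, adjusted p = 0.000183) on one probe and gave 0.11 (adjusted p = 0.115) on the other. P2rx7, a subunit of macrophages and glia, gave 0.17 (adjusted p = 0.0471), 0.18 (adjusted p = 0.0829) and 0.05 (adjusted p = 0.662) on its 3 probes. The first of these was no longer called without any 1 of 34 arrays (adjusted p up to 0.0832). The macrophage markers rose by a median of 2.25, and their part in the P2rx4 and P2rx7 values was not tested. P2rx6, a subunit that rarely forms channels alone, fell by 0.86 (SE 0.07, adjusted p = 1.89e-16) on one probe, from values of 5.15, 7.75 and 8.63 (lowest, median and highest) to 5.50, 6.71 and 7.48. Its other probe was above background on 2 naive and 1 axotomy arrays and gave -0.08 (adjusted p = 0.335). P2rx5 gave -0.21 (adjusted p = 0.0364, lost without any 1 of 13 arrays) and -0.12 (adjusted p = 0.19), the latter called at -0.24 (adjusted p = 0.003) with runs of 8 neighbouring columns as a block.

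The strains gave between 16 and 29 called subunit probes each. Of the 58, 23 were called in 129 (39.7%, against 29.7% of all kept probes), 16 in AJ (27.6% against 16.7%) and 19 in C3H (32.8% against 24.2%). In C57 21 were called (36.2% against 20.8%), in CAST 22 (37.9% against 27.9%) and in DBA 28 (48.3% against 30.2%). NOD gave 22 (37.9% against 22.4%), NZO 27 (46.6% against 24.6%) and WSB 29 (50.0% against 35%). In every strain more subunit probes were lower than higher. AJ had the fewest falls, with 9 lower (15.5%, against 7.68% of all kept probes) and 7 higher (12.1% against 9.01%), and its count of lower probes was 5 without the first naive array. WSB had 20 lower and 9 higher and DBA 21 lower and 7 higher. For strains other than AJ no share of all kept probes by direction is given. The excess of lower probes there is therefore not read as a trait of the subunits.

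Whether strains responded differently was tested with a moderated F-test. It called 21 of 58 subunit probes (36.2%, 16 genes), against 14.3% of all kept probes. The test of the naive level called 37 (63.8%, 26 genes), against 56.3%. Of the 21 response calls, 12 were nicotinic, 3 GABA-A, 2 kainate, 2 P2X, 1 AMPA and 1 glycine. Against the mean of the other 8 strains, the response of AJ differed for 10 subunit probes (17.2%, 7 genes), while 1.02% of all kept probes did. Of these, 9 had a higher difference in AJ (15.5%, against 0.624% of all kept probes), on probes of Grik1, Chrna3, Chrna4, Chrna6, Chrnb3 and Chrnb4, and 1 a lower (1.72% against 0.397%), on Gabrg1. Several of these probes share a gene or lie in neighbouring genes, 1 of them (of Chrnb3) was above background on no AJ array, and AJ had 3 arrays per group. The AJ count was 5 without axotomy array 2 or without axotomy array 3, and 6 with median scaling in place of quantile normalisation. CAST differed for 8 probes (13.8% against 6.91%), WSB for 8 (13.8% against 5.74%), DBA for 6 (10.3% against 2.15%) and NZO for 3 (5.17% against 1.99%). The CAST count was 4 without axotomy array 3, 5 without naive array 3 and 5 with median scaling. It includes a Grik1 probe (1.09) above background on no naive CAST array and a P2rx6 probe (0.91) near background there. How far that limited a fall in CAST was not tested. The DBA count was 3 without axotomy array 1, and the WSB count was 5 without naive array 1 or 4 or axotomy array 3 or 4. In 129 and C3H 1 probe differed (1.72%, against 3.92% and 0.988%). The limma test called none in C57 and NOD, where 0.886% and 0.698% of all kept probes were called. At an unadjusted p below 0.05, C57 had 3 higher and 1 lower probes and NOD 1 higher and 4 lower.

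Chrna3, the alpha subunit of the ganglionic nicotinic receptor, did not pass the threshold in the mean over strains, and its response differed between strains with an adjusted p of 1.21e-10 in the F-test. In AJ the 3 naive arrays stood at 5.55, 6.10 and 5.32 and the 3 axotomy arrays at 8.43, 8.80 and 8.31. All AJ axotomy arrays were thus far above the AJ naive arrays, only 1 of which was above background. The rise was 2.86 (SE 0.32, adjusted p = 8.55e-11) and exceeded the mean response of the other 8 strains by 3.14 (SE 0.33, adjusted p = 2.63e-09). In DBA the naive arrays stood at 7.47, 7.17, 7.86 and 6.40 and the axotomy arrays at 5.11, 5.68, 5.58 and 5.53. No DBA axotomy array was above background, so that the level was at least 2.53-fold lower (fitted difference -1.75, SE 0.28, adjusted p = 4.12e-07). The DBA response differed from the mean of the other 8 strains by -2.04 (adjusted p = 2.02e-06). CAST fell by 0.72 (SE 0.28, adjusted p = 0.0424), and the remaining 6 strains had differences between -0.44 and 0.48 that did not pass the threshold. Without AJ the mean over the remaining 8 strains was -0.28 (adjusted p = 0.0108), and without DBA it was 0.29 (adjusted p = 0.00816).

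The naive level of Chrna3 also set strains apart. CAST stood highest, with 10.79 to 11.12 on its 4 naive arrays, 3.93 above the mean of the other 8 strains (SE 0.21, adjusted p = 1.7e-25). C57 followed at 8.38 ± 0.23 (SD, n = 4), 1.003 above the others (adjusted p = 0.000157). C3H, WSB, DBA, NOD and NZO lay between 7.04 and 7.44, and no difference of theirs from the mean of the others passed the threshold. At the low end were 129 at 6.13 ± 0.64 (SD, n = 4) and AJ at 5.66 ± 0.40 (SD, n = 3), with differences from the others of -1.52 and -2.05 (adjusted p = 2.95e-08 and 2.93e-10).

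Chrnb4, the beta partner of alpha3, and Chrna5 lie beside Chrna3 with no protein-coding gene between. Chrnb4 was 2.25 above the other strains in naive CAST (SE 0.17, adjusted p = 1.16e-18) and fell there from 7.99 ± 0.09 to 6.84 ± 0.49 (SD, n = 4), by 1.15 (SE 0.22, adjusted p = 2.58e-05). In AJ Chrnb4 was above background on no naive and all 3 axotomy arrays, at least 1.16-fold higher (fitted difference 0.99, adjusted p = 0.00307), and differed from the other strains' response by 1.39 (SE 0.27, adjusted p = 0.00107). In DBA it was above background on 1 naive array and no axotomy array, with a difference of -0.42 (adjusted p = 0.151). For Chrna5, with no naive array above background in any strain, strain differences could not be read from the fit.

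P2rx2, the partner of P2X3 in sensory neurons, did not pass the threshold in the mean over strains (-0.05, SE 0.06, adjusted p = 0.526), and its adjusted p in the F-test was 1.63e-08. In WSB its arrays stood at 8.60, 8.64, 8.75 and 8.65 before and 9.44, 9.26, 9.49 and 9.54 after axotomy, a rise of 0.77 (SE 0.17, adjusted p = 0.000188). In NZO they went from 7.005, 7.11, 6.80 and 6.52 to 7.36, 7.66, 7.73 and 7.56, a rise of 0.72 (adjusted p = 0.000847). In both strains the 2 sets were apart. DBA fell by 1.04 (SE 0.17, adjusted p = 1.03e-06), from 7.23 ± 0.20 to 6.19 ± 0.22 (SD, n = 4). CAST fell by 0.80 (adjusted p = 0.000138), from 6.56 ± 0.29 to 5.76 ± 0.20 (SD, n = 4), with 1 of 4 axotomy arrays above background. The other 5 strains did not pass the threshold. In naive ganglia WSB was 1.603 above the mean of the other strains (SE 0.13, adjusted p = 2.13e-16).

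**Figure D3:**
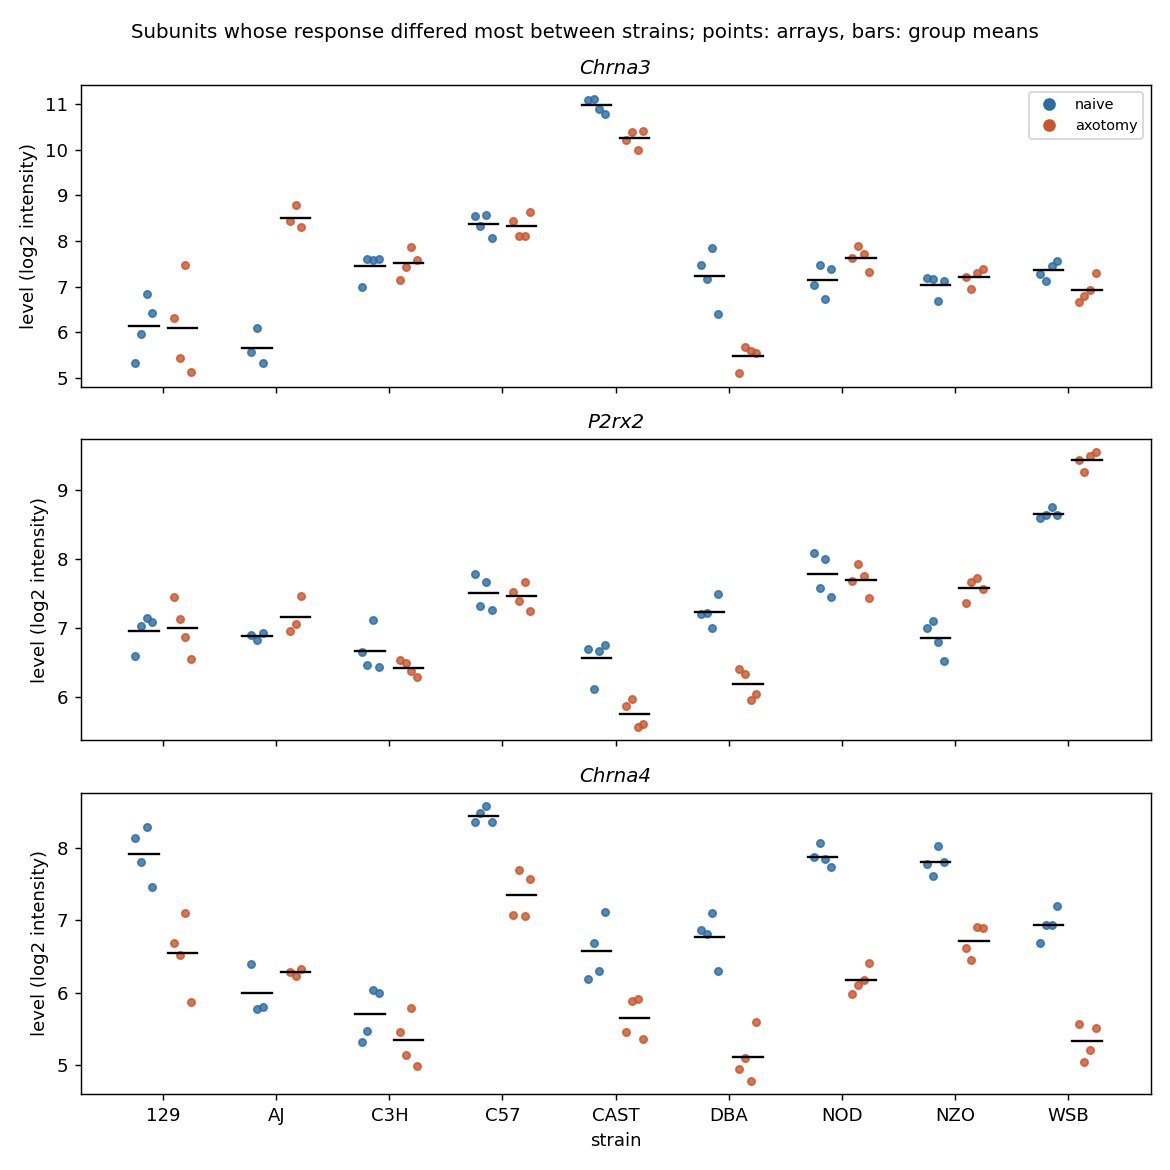
Level of Chrna3, P2rx2 and Chrna4 (log2 intensity) on each naive (blue) and axotomy (orange) array of the 9 strains. Bars are group means. Chrna3 rises in AJ and falls in DBA, P2rx2 rises in WSB and NZO and falls in DBA and CAST, and Chrna4 falls in 7 strains.

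Chrna4 fell in 7 strains, by 0.92 to 1.71 on its more strain-dependent probe, while AJ (0.29, adjusted p = 0.509) and C3H (-0.36, adjusted p = 0.246) did not pass the threshold. In CAST, DBA and WSB no axotomy array was above background on this probe, so that the levels there were at least 1.54-fold, 1.8498-fold and 2.02-fold lower. AJ and C3H were low in naive ganglia, at 5.99 ± 0.35 (SD, n = 3) and 5.71 ± 0.36 (SD, n = 4), where 1 of 3 and 2 of 4 arrays were above background. C57 stood highest at 8.44 ± 0.10 (SD, n = 4). The response of AJ differed from the mean of the other strains on both probes, by 1.52 (SE 0.26, adjusted p = 0.000145) and 1.10 (adjusted p = 0.0355). The second of these calls was lost without naive array 2 or axotomy array 2 or 3 of AJ (adjusted p = 0.350, 0.192 and 0.125) and with median scaling (adjusted p = 0.0597). In AJ the naive level was close to background, and how far that limited a fall was not tested.

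For Chrna6 and Chrnb3 the strains kept a similar order in naive ganglia. Chrna6 was highest in C3H, DBA and NZO, at 11.52 ± 0.17, 11.38 ± 0.09 and 11.35 ± 0.07, and lowest in WSB, at 7.68 ± 0.44 (SD, n = 4 each). The first 3 were 1.74, 1.58 and 1.54 above the mean of the others and WSB differed from it by -2.59, with adjusted p-values from 6.98e-24 to 9.22e-14. The remaining 5 strains lay between 9.31 and 9.90. The best measured Chrnb3 probe was highest in C3H, DBA and NZO as well, at 10.1 ± 0.2, 9.70 ± 0.09 and 9.06 ± 0.18, and lowest in WSB, at 5.99 ± 0.55 (SD, n = 4 each), where 2 of 4 arrays were above background. The fall after axotomy was smallest in AJ for both genes. In AJ Chrna6 changed by -0.59 (SE 0.22, adjusted p = 0.0619) and -0.64 (SE 0.22, adjusted p = 0.0348) on its 2 probes, 1.07 and 1.04 above the mean response of the others (adjusted p = 0.00547 and 0.00641). Chrnb3 changed in AJ by 0.01 (SE 0.27, adjusted p = 0.983), 1.503 above the others (SE 0.28, adjusted p = 0.000585). On the second Chrnb3 probe AJ lay 1.08 above the others (adjusted p = 0.0585), and on the remaining probe no AJ array was above background. The AJ calls for Chrna6 were lost without axotomy array 3 of AJ (adjusted p = 0.0902 and 0.0961) and, on the second probe, without axotomy array 2 (adjusted p = 0.0768). In DBA Chrnb3 fell by 2.18 (SE 0.23, adjusted p = 4.65e-12), from 9.70 ± 0.09 to 7.52 ± 0.65 (SD, n = 4). WSB had the largest fitted fall of Chrna6, at -2.30 on one probe with 1 of 4 axotomy arrays above background, and at least 3.36-fold lower on the other with none. Its difference from the other strains was -0.85 (adjusted p = 0.00498) and -0.73 (adjusted p = 0.0179). Without background correction both took the opposite sign, 0.31 (adjusted p = 0.175) and 0.38 (adjusted p = 0.0421). The second call was also lost without WSB naive array 3 or 4 or axotomy array 2 or 4 (adjusted p of 0.0515 to 0.125). On the second Chrnb3 probe the WSB response was instead called 0.91 above the others, lost without any 1 of 2 arrays (adjusted p up to 0.154). The naive WSB level of that probe differed from the others by -2.06. The remaining Chrnb3 probes were not called for the WSB response.

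**Figure D4:**
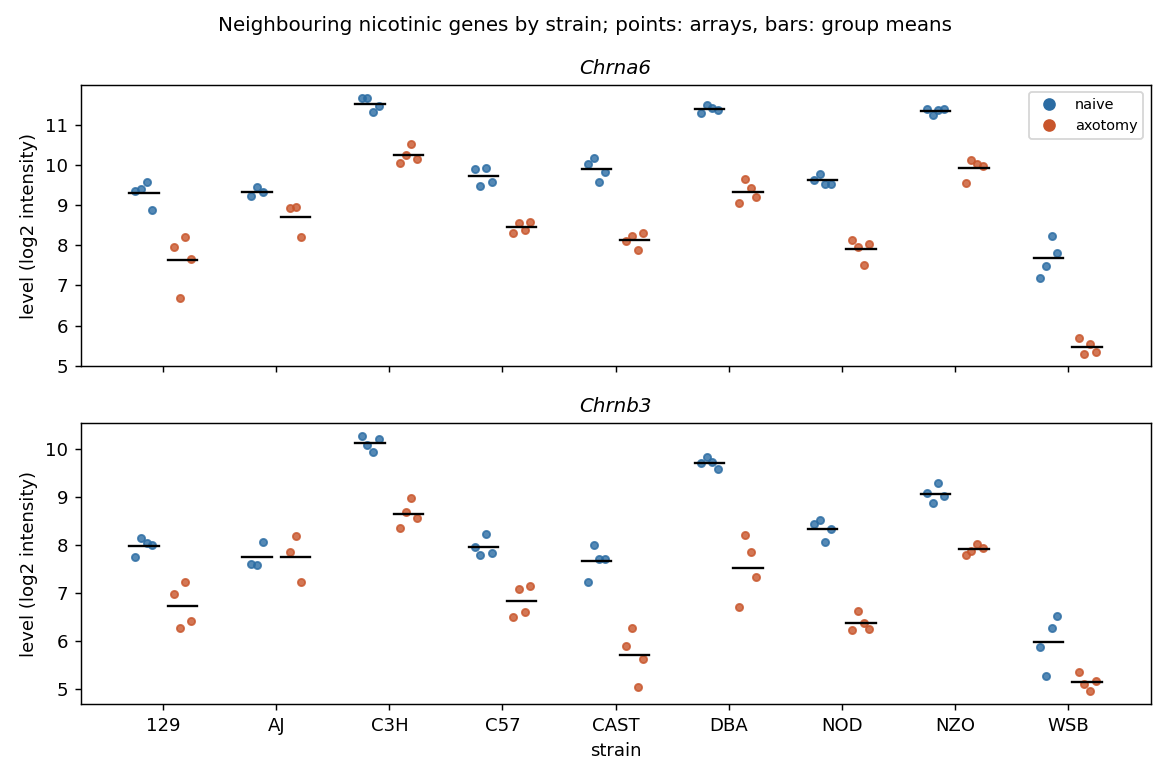
Level of the neighbouring genes Chrna6 and Chrnb3 (log2 intensity) on each naive (blue) and axotomy (orange) array of the 9 strains. Bars are group means. C3H, DBA and NZO sit highest and WSB lowest for both genes, and the AJ naive and axotomy values lie closest together.

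Nociceptor marker sums also differed between strains in their fall. Their means went from 55459 to 21368 in WSB, 54954 to 22734 in DBA and 48535 to 24172 in 129. In CAST they went from 55691 to 29539, in NOD from 52289 to 28823 and in NZO from 50104 to 30456. In C3H they went from 57563 to 34583, in C57 from 58126 to 36338 and in AJ from 49010 to 36557. The part of these markers in the strain differences of the subunits was not tested. Other subunits with a strain-dependent response included Gabrg1, Gabra3, Gria2, Grik1 and Chrnb1, and the full list is given further below. Gabrg1 rose by 1.44 in DBA (SE 0.15, adjusted p = 3.63e-12) and changed by 0.15 in AJ (SE 0.17, adjusted p = 0.652), and both differed from the other strains (adjusted p = 0.0105 and 0.0107). The DBA call was lost without axotomy array 1 or 4 (adjusted p = 0.0581 and 0.0566), and the AJ call without axotomy array 2 or 3 or naive array 3 (adjusted p = 0.0544, 0.113 and 0.0820). Gabra3 fell by 1.34 in WSB and changed by 0.10 in NZO, with adjusted p-values of 0.0183 and 0.0442 for the difference from the others. The WSB call was lost without naive array 1 or 4 or axotomy array 3 or 4 (adjusted p up to 0.0965) and with runs of 8 neighbouring columns as a block (adjusted p = 0.0774), and the NZO call without any 1 of 16 arrays, all 8 of NZO among them (adjusted p up to 0.112). Gria2 likewise fell most in WSB, by 1.49 (2.82-fold lower), and least in NZO, by 0.53 (1.44-fold lower), with adjusted p-values of 0.00139 and 0.0103 for the difference, the latter at 0.0656 without NZO naive array 4. Grik1 fell most in WSB, by 1.49, and least in AJ, by 0.47, and again both differed from the others (adjusted p = 0.00111 and 0.00748). The AJ call was lost without axotomy array 2 (adjusted p = 0.121) or naive array 1 (adjusted p = 0.0629). With median scaling the calls for Gabrg1 in both strains and for Grik1 in AJ were lost (adjusted p of 0.0636 to 0.116). Chrnb1 started higher in naive CAST, at 8.66 ± 0.36 (SD, n = 4), 1.39 above the other strains (SE 0.15, adjusted p = 4.51e-12). After axotomy it was at 8.83 ± 0.26 there, a difference of 0.17 (SE 0.20, adjusted p = 0.593), and its response differed from the mean of the others by -0.94 (adjusted p = 0.00161).

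Against the remaining 8 strains, the naive level of CAST differed for 25 of 58 subunit probes (43.1%), and for 43.3% of all kept probes. NOD differed for 17 probes (29.3% against 18.2%), NZO for 17 (29.3% against 16.7%) and C57 for 16 (27.6% against 17.7%). AJ, C3H, DBA and WSB differed for 13 each (22.4%), against 13.2%, 13.8%, 12.6% and 21.8% of all kept probes in this order, and 129 for 9 (15.5% against 16%). Naive Grik4 differed from the other strains by -1.13 in DBA (adjusted p = 9.45e-12) and by 0.95 in CAST (adjusted p = 4.48e-10). Chosen after its values were seen, naive Gria1 differed by 1.09 in DBA (adjusted p = 5.13e-06) and by -0.99 in CAST (adjusted p = 8.53e-06) on its brightest probe.

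For Grik1 and P2rx4 the probes disagreed in CAST, while P2rx6 had 1 probe that was rarely above background in any strain. On one Grik1 probe CAST stood at 5.38 ± 0.26 (SD, n = 4), above background on no array, at least 3.53-fold lower than the naive arrays of the other strains (adjusted p = 1.29e-13). On the other it stood at 13.9 ± 0.1, and the difference of 0.10 did not pass the threshold (adjusted p = 0.358). One P2rx4 probe gave -1.24 in CAST (adjusted p = 2.96e-18) and the other 0.66 (adjusted p = 3.76e-05). The brighter P2rx6 probe gave -1.95 in CAST (adjusted p = 1.81e-16), at 5.70 ± 0.42 (SD, n = 4) with 1 of 4 arrays above background, and its response there was -0.05 (adjusted p = 0.895). The sequences of these probes were not checked against the strains' genomes, and whether the CAST values are levels of RNA or of probe binding was not tested.

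**Figure D5:**
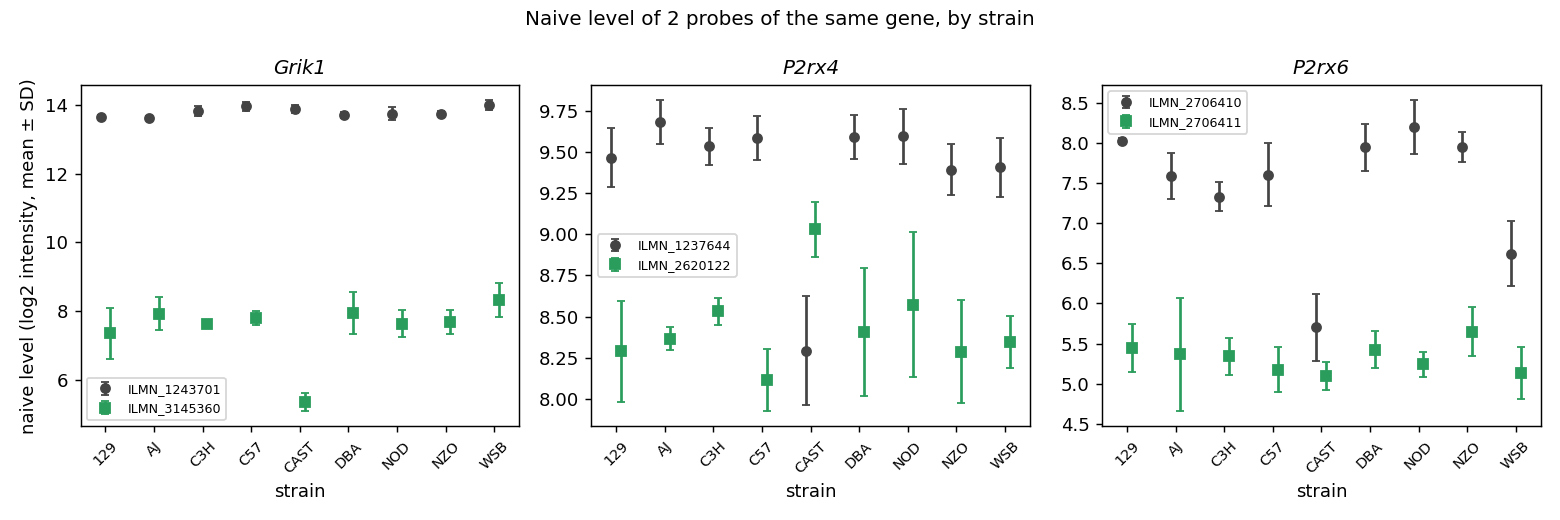
Naive level (log2 intensity, mean ± SD over 3 or 4 arrays) of 2 probes each for Grik1, P2rx4 and P2rx6 in the 9 strains. In CAST one probe of each gene is low, at 5.38 for Grik1, 8.29 for P2rx4 and 5.70 for P2rx6, while the other probe of Grik1 and of P2rx4 is not and that of P2rx6 is near background in all strains.

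Of the genes that work with these receptors, those of glutamate receptors mostly fell. With 1 probe per gene, 28.0% of all 11815 genes were higher and 33.5% lower, with a median of -0.03, and the counts of the shorter lists stand beside these shares. Among 27 measured auxiliary and scaffold genes of ionotropic glutamate receptors, 16 were lower and 2 higher, with a median of -0.15. Camk2b, a subunit of a synaptic kinase, fell by 0.89 (SE 0.03), and Nptx1, a secreted protein that clusters AMPA receptors, by 1.43 (SE 0.07). Neto1, an auxiliary subunit of kainate and NMDA receptors, went the other way and rose by 1.94 (SE 0.07, adjusted p = 1.94e-34), from 29 to 35 of 35 arrays above background. Of 8 genes of glutamate supply 2 were higher and 3 lower, among them the vesicular transporters Slc17a8 (-1.15, SE 0.06) and Slc17a7 (-0.41, SE 0.03) and the uptake transporter Slc1a1 (-0.59, SE 0.07). Of 5 metabotropic glutamate and GABA-B receptor genes 1 was higher, the GABA-B auxiliary subunit Kctd12 (0.74, SE 0.06), and 2 were lower, Grm8 (-0.65, SE 0.06) and Gabbr1 (-0.30, SE 0.05).

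For GABA and glycine, 2 of 9 genes of supply, transport and the chloride gradient were higher and 3 lower. Abat, which breaks down GABA, changed by -0.37 (SE 0.04), the chloride exporter Slc12a7 by -0.40 (SE 0.07) and the GABA transporter Slc6a13 by 0.54 (SE 0.10). Among 15 clustering and trafficking genes 5 were higher and 7 lower, with the adhesion proteins Nlgn3 at -0.70 (SE 0.05), Nrxn3 at -0.78 (SE 0.06) and Nlgn2 at 0.37 (SE 0.03). The 2 measured serotonin-gated subunits, relatives of the nicotinic family, both fell. Htr3a fell by 1.84 (SE 0.07, adjusted p = 9.47e-32) and Htr3b by 1.89 (SE 0.08, adjusted p = 3.21e-30), against 1.56 for Chrna6.

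For acetylcholine, 7 of 17 chaperones, modulators and handling genes were higher and 6 lower. Ly6h and Ly6e belong to the family of nicotinic receptor modulators, and Ache breaks acetylcholine down. Ly6h fell by 1.48 (SE 0.04, adjusted p = 6.21e-39), Ache by 1.05 (SE 0.04) and Ly6e rose by 0.95 (SE 0.06). For ATP, 3 of 6 genes of release and breakdown were higher and 2 lower. The ectonucleotidases Acpp (-1.08, SE 0.04) and Entpd3 (-1.26, SE 0.05) of sensory neurons fell, and Entpd2 (0.83, SE 0.03) rose. Of 6 measured P2Y receptors, metabotropic receptors for nucleotides, 4 rose and 1 fell, with P2ry6 at 2.36 (SE 0.05), P2ry14 at 1.26 (SE 0.04) and P2ry1 at -1.10 (SE 0.04).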

How the data were processed

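RNA from dorsal root ganglia of 9 strains was measured on 1-colour Illumina bead arrays. The deposited table holds intensities per probe that were neither background-corrected nor normalised, per the file headers and values, from 164 to 53947 with array medians of 253 to 392. It also holds detection p-values, deposited per the file headers for each probe and array. The deposited log2 matrix equalled the log2 of the intensities after quantile normalisation alone, to within 4.99935e-09. Of the software behind these values, the sources used here give no name. The labels call the replicates biologically distinct, and the number of arrays, 16 groups of 4 and 2 of 3, limits the precision.

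Intensities were background-corrected with normexp on detection p-values (limma 3.58.1 in R 4.3.3, offset 16), quantile-normalised and taken to log2. Of 25697 probes, 17616 had a detection p-value below 0.05 on at least 3 arrays and were kept. Probe symbols came from the platform annotation, which gave 23978 probes 1 symbol, 0 several and 1719 none, and 2 AJ arrays (4 columns) that the series design calls technical outliers were not used. limma fitted 1 mean for each of the 18 groups with no replicate block and moderated the variances with a trend (52 residual and 8.93 prior degrees of freedom). Contrasts gave axotomy minus naive, as a mean over strains and in each strain, and each strain against the mean of the other 8. F-tests with 8 degrees of freedom asked whether strains differed, and all p-values were adjusted by Benjamini-Hochberg over all kept probes. A probe above background on no array of a group is given a fold only as a bound against the dimmest signal above background.

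The members and lists were chosen with earlier results of these data known. Probes are described in full that were among the 4 of a class with the smallest adjusted p, the 6 highest and 6 lowest differences of 1 sign in all strains, or the 5 smallest p-values of each F-test, with further probes of their genes. Up to 3 genes of each pathway list are named, by adjusted p. Same-numbered naive and axotomy arrays of a strain did not deviate together on average (mean residual correlation 0.031 over 34 pairs, from -0.192 to 0.396). Pairing by number was therefore not used, though these values cannot show whether same-numbered samples were collected together. Arrays from the same run of 8 neighbouring columns deviated together weakly (0.144, against -0.031 otherwise). In simulated data on 17616 probes the mean contrast recovered 100% of 100 changes of 0.5 log2. The strain F-test recovered 53% of 200 changes of 1 log2, all put into CAST alone. False calls were 8 of 208 for the mean contrast and 8 of 114 for the F-test. The simulated noise was independent between arrays, unlike that of arrays from the same run. Alternatives covered background correction, normalisation, filters, probe choice, weights, blocks, and leaving out arrays or strains. Those for the contrasts of 1 strain with the others, and leaving out the 3 arrays with the highest muscle sums, were chosen after seeing the data. Promoters are those of RefSeq on GRCm38.p6.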

Additional observations from a re-analysis of the deposited data

Results flagged for a closer look

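In 7 of 112 groups of 4 arrays, over the 7 probes with the smallest p-values in the F-tests, 1 array stood apart from the other 3 by a gap over Dixon's critical share of the group's range, and chance flags about 1 group in 20. For Chrna3 these were naive array 1 of C3H at 6.98 (others 7.58 to 7.61) and naive array 3 of NZO at 6.68 (others 7.11 to 7.20). For Chrna6 axotomy array 4 of C57 stood at 8.97 (others 8.51 to 8.55) and naive array 2 of NZO at 11.24 (others 11.38 to 11.39). For Chrnb3 naive array 3 of DBA stood at 6.57 (others 7.06 to 7.16) and axotomy array 3 of NOD at 4.77 (others 5.13 to 5.18). P2rx2 stood at 6.12 on naive array 2 of CAST (others 6.67 to 6.76).

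The response to axotomy differed between strains, by limma's moderated F-test, on 21 subunit probes. The adjusted p was 1.21e-10 for Chrna3, 0.000253 for Chrnb4, and 2.32e-05, 0.000158 and 2.65e-09 for the 3 probes of Chrnb3. It was 0.000129 and 0.000791 for the probes of Chrna6, and 8.26e-06 and 0.0304 for those of Chrna4. Chrna1 (0.0403), Chrnb1 (0.0168) and Chrnb2 (0.0411) were called on 1 probe each. Among P2X subunits P2rx2 gave 1.63e-08 and P2rx3, whose mean difference was not called, 0.00347. The Grik1 probes gave 3.01e-05 and 0.0206, the latter on a probe above background on no naive CAST array, and Gria2 gave 0.00156. The remaining ones were Gabra3 (0.00137), Gabrg1 (0.00214), Gabrb1 (0.0348) and Glra2 (0.0396), the last on a probe that was rarely above background.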

How the results depend on the processing

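In the mean response 8 to 11 subunit probes were higher and 29 to 32 lower when single arrays were left out. Without the 3 arrays with the highest muscle sums 9 were higher and 30 lower. With a change of at least 1.5-fold asked for as well, 6 were higher and 16 lower. No share of all kept probes is given for this rule, so these counts are not read as a trait of the subunits. The replicate block gave 8 higher and 30 lower probes, 20 and 37 calls in the F-tests of response and naive level, and 10, 9, 6 and 8 calls in the contrasts of AJ, CAST, DBA and WSB, and it lost the calls of P2rx7 (0.17, adjusted p = 0.0558) and Chrne (0.18, adjusted p = 0.0540). With runs of 8 neighbouring columns as a block 9 were higher and 33 lower, with the differences of Gria1 (-0.25, adjusted p = 0.0129), P2rx5 (-0.24, adjusted p = 0.003) and Gabrb2 (-0.18, adjusted p = 0.0462) now called and that of P2rx7 lost (adjusted p = 0.0742). With 1 probe per gene, which tests fewer probes, the lower counts were 18 in the mean, 5 in AJ, 9 in C3H, 9 in C57, 10 in NOD and 10 in NZO, the higher count in CAST was 3, and the WSB response contrast had 5. Median scaling gave 6 calls in the AJ contrast and 5 in the CAST contrast, and the cause was not tested. Leaving out single arrays gave 5 to 10 lower probes in AJ (fewest without naive array 1), and contrast calls of 5 to 11 for AJ, 4 to 10 for CAST, 3 to 8 for DBA and 5 to 8 for WSB. The mean response of Chrna3 was -0.28 without AJ. The Chrna6 response of WSB against the others turned to 0.31 and 0.38 without background correction and, as the same values, with the authors' deposited log2 matrix, and the cause was not tested. Outside the settings that left out 1 array, 194 of 194 F-test results kept their side of the threshold. These were only the results of the 5 probes with the smallest p-values in each F-test, so that this outcome was close to fixed by their choice. The other F-test calls were not followed singly. Of the single-probe differences 1042 kept their side of the threshold, while 38 lost their call, 18 gained one and 1 reversed. Of the contrasts of 1 strain with the others 2370 kept theirs, 139 lost it and 4 reversed. The P2rx5 call was lost with the authors' matrix (adjusted p = 0.0547) and without the filter (adjusted p = 0.0517). Signal over background limits Chrna3, Chrna4, Chrna6 and Chrnb3 in the strains with few arrays above it.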
